A study of Saccharomyces cerevisiae with 4 samples.

Results

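The response of reg1 cells to an alkaline shock of 10 min was read from the 2 dye-swapped arrays that set RNA of cells given KOH against RNA of cells given KCl. Every row of the deposited table was taken at its name, except 199 rows from YAL067C to YBR047W where the names and the values may be displaced against each other, which left 6013 of 6212 rows. Of these, 4584 carried a value on both arrays and were tested, 466 carried a value on 1 array only and 963 on neither. The series holds 4 spotted 2-colour arrays of Saccharomyces cerevisiae, and its other 2 arrays compare reg1 with the wild type, both untreated. All cells, in both channels of both alkali arrays, were of the strain labelled DBY4741 and carried the deletion reg1::KanMX, in which a KanMX cassette takes the place of REG1. They grew to log phase at 28 °C in rich medium with glucose (YPD, about pH 5.5) and then received either 16 mM KOH, which brought the medium to about pH 8, or 16 mM KCl, which adds the same potassium without the alkali. RNA of KOH-treated cells was labelled with Cy3 on experiment 1 and with Cy5 on experiment 2. The labels do not say whether the 2 experiments came from separate cultures, or whether the mutant strain was 1 clone, so p-values here reflect no more than how far these samples differ, and that spread may be technical. Wild-type cells under alkali were not analysed here, so nothing below shows which changes need the loss of REG1.

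Budding yeast acidifies its surroundings and drives most nutrient uptake with the proton gradient that the plasma membrane proton pump Pma1 builds. A sudden rise of external pH weakens that gradient, lets calcium into the cell and activates the phosphatase calcineurin with its transcription factor Crz1, the Rim101 pathway and the kinase Snf1, and it hampers the uptake of phosphate, iron and copper. Reg1 directs the phosphatase Glc7 to Snf1 while glucose is plentiful. Without it Snf1 stays active in glucose, and many genes that glucose normally represses are already expressed before any stress.

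Ratios were read as KOH over KCl on a log2 scale. This direction is likely rather than stated: titles and channel order give it. The log base was taken as 2 from the range of the values. REG1 itself had a value on 0 of the alkali arrays and cannot check the labels there. Across the 4584 genes the arrays correlated at r = 0.955 (Spearman 0.961), a description over genes that share 2 arrays. The values of 89.5% of the genes differed by less than 0.5 between the arrays, and those of 77 genes (1.7%) by more than 1. The ratios of experiment 1 were somewhat larger, with a slope of 1.07 on those of experiment 2. The median of all means was -0.085. From YBR048W on, the rows keep the names of their genes on these arrays. Cytosolic ribosomal protein rows had a median of -1.68 from YBR048W to YKL010C and of -1.66 from YKL011C on. When names were moved by 1 to 3 rows, the medians were -0.59 to 0.09. The rows before YAL067C, which hold TFC3, EFB1 and CLN3, had no ribosomal protein row and 1 ribosome assembly row, too few for this check.

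With limma's moderated test and Benjamini-Hochberg adjustment, 1494 of the 4584 genes rose (32.6%) and 1770 fell (38.6%), together 71.2%. In RNA from whole cultures, fewer cells that express a gene and less RNA per cell cannot be told apart. So broad a background means that a call by itself says little about a gene, and 53.8% of the called genes had a mean change below 2-fold. At 2-fold or more on both arrays 681 genes were higher (14.9%) and 616 lower (13.4%), and all 1297 also passed limma's test. One gene, RTS2, reached 2-fold in opposite directions, with -1.97 on experiment 1 and 2.16 on experiment 2. Increases were larger than decreases. At 4-fold on both arrays 196 genes were higher and 106 lower, at 8-fold 70 and 13, at 16-fold 30 and 1, and at 32-fold 9 and 0. Just inside the 2-fold limit lay HFL1 (1.00 and 1.08) and PDS1 (-1.07 and -1.0), and just outside it SEC24 (0.99 and 1.28) and BET3 (-0.99 and -1.09).

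How much a call owes to having both arrays was measured by leaving out each in turn, with the spread then taken from the mutant arrays, realigned to their names, and the lone array assumed to vary as they do. Calls numbered 1312 without experiment 1 and 1530 without experiment 2, and of the 1297 genes at 2-fold 1191 and 1231 were still called. Of 316 genes called and named by rule, 127 lost their call without experiment 1 and 117 without experiment 2, none of them with a mean beyond 1.68 in size. The losses are named in each paragraph below, and the value that stays is that of the other array, which is printed. There, "without either array" means that the call was lost whichever of the 2 was left out.

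The largest increases named here are described by kind, beginning with proteins of the plasma membrane. ENA1, which encodes a P-type pump that exports sodium and lithium, had a log2 ratio of 7.40 on experiment 1 and 7.40 on experiment 2, a 169-fold rise (adjusted p = 0.000541, limma). Its tandem copy ENA2 had 5.54 and 5.38, and ENA5, the remaining copy, was measured on neither array. The copies are nearly identical, so their spots may share signal. PHO89, a phosphate transporter that runs on the sodium gradient, had 5.45 and 5.69 (47.5-fold). The paralogues YNL194C (7.26 and 5.90) and FMP45 (5.41 and 4.98) encode membrane proteins of the Sur7 family. These genes were high on both arrays, and of them YNL194C was the one whose values lay more than 1 apart.

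Among the other genes at the top of the ranking, SIP4 and 2 more act, or may act, in carbon use. SIP4, an activator of gluconeogenic genes, had 5.02 and 5.10, and YGR067C, a putative zinc finger protein resembling Adr1, had 5.15 and 5.29. The hexose transporter gene HXT5, known for its expression in slowly growing cells, had 4.80 and 4.92. All these values differed by less than 0.2 between the arrays. BOP2 (6.0 and 5.73), the mitochondrial protein gene AIM17 (4.80 and 5.01) and THI3, a regulator of thiamine genes (4.77 and 4.96), completed the 12 with PDR15. Another 2 rows ranked among these but lie within 20 rows of the omitted stretch and are not named. PDR15, an ABC transporter of the drug resistance network, had 8.04 on experiment 1 and 4.83 on experiment 2. Among genes at 2-fold it was 1 of the 5 whose arrays differed most. The others were YJL107C (9.1 and 3.78), YLR402W (5.99 and 1.92), YMR085W (6.86 and 3.29) and YMR316C-A (5.29 and 1.76), all with the higher value on experiment 1. On experiment 2 they ranged from 1.76 to 4.83.

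The largest decreases were nearly all in the making of ribosomes. UTP9 had -4.30 and -4.10, RRP36 -3.97 and -4.60, and UTP23 -3.80 and -3.76. These 3 encode components of the small subunit processome, the particle that folds and cuts the precursor of the 18S ribosomal RNA, as do BUD21 (-3.10 and -3.23) and SOF1 (-3.20 and -3.08). Factors of the large subunit followed. ALB1, a shuttling factor of the pre-60S particle, had -4.63 and -3.45, EBP2 -3.24 and -3.98, CIC1 -3.63 and -3.42, and SPB1, a methyltransferase of ribosomal RNA, -3.61 and -3.29. RRP14 (-3.52 and -3.34) and the snoRNP protein gene NHP2 (-3.43 and -3.58) had similar values. Only 1 of the 12 lowest, AQR1, belongs elsewhere: it encodes a multidrug transporter of the plasma membrane and had -3.18 and -3.95.

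**Figure D1:**
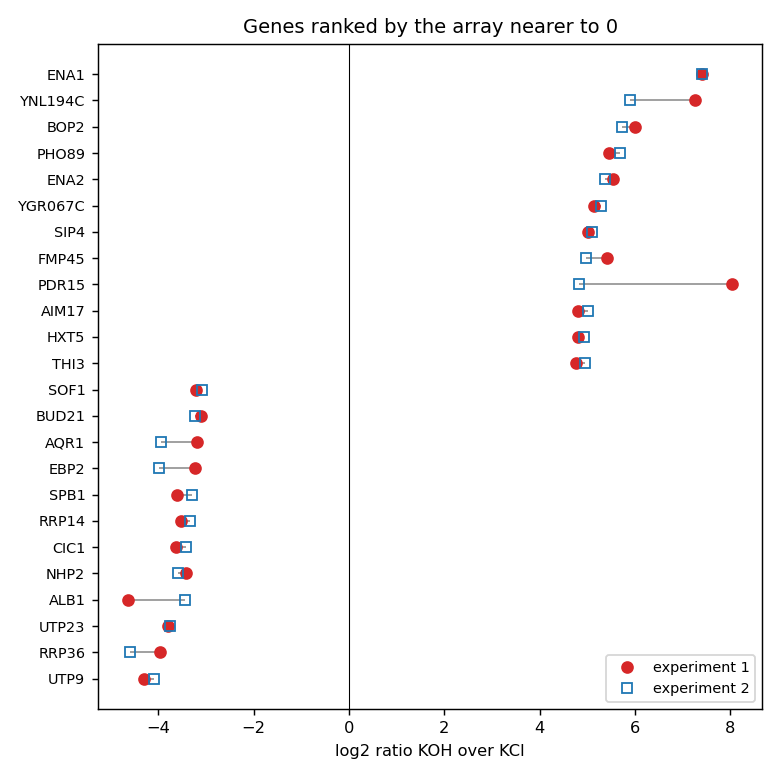
Log2 ratio of KOH over KCl on experiment 1 (filled circles) and experiment 2 (open squares) for the 12 highest and 12 lowest called genes among those that can be named, ranked by the array nearer to 0, with a line joining the 2 values (2 rows near the omitted stretch would rank among the highest). ENA1 is at 7.40 on both arrays, PDR15 spans 4.83 to 8.04, and the lowest genes lie between -4.63 and -3.08.

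The ratios rose with gene length. Lengths are those of coding regions in assembly R64 and were available for 4332 of the tested genes. The median length was 2145 bases for genes at 2-fold or more higher, 816 for those lower and 1224 for all tested. Genes under 500 bases had a median log2 ratio of -0.76, those of 1000 to 1500 bases -0.25, those of 2000 to 3000 bases 0.60, and the 111 genes of 4000 bases or more 1.91. Of these 111 long genes 79.3% were at 2-fold or more higher and 0.0% lower, while of genes under 500 bases 6.7% were higher and 32.6% lower.

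The trend was present on each array, with Spearman's rho of 0.503 on experiment 1 and 0.487 on experiment 2 across genes, and without the ribosome lists, with 0.498 over 3965 genes. It was nearly absent in the mutant comparison. In 2121 genes whose names also hold for the mutant arrays, rho was 0.089 for reg1 over wild type (0.197 and -0.039 on its 2 arrays) against 0.504 for alkali in the same genes. These are descriptions over genes of the same arrays. The RNA was primed with oligo(dT) per the labels, and whether RNA quality, labelling or the cells' own response gives the trend was not tested.

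To show what each gene group has beyond its lengths, a smooth curve of ratio against length was subtracted and the median of that curve added back. This alternative was chosen after seeing the data. It leaves 376 genes at 2-fold higher and 520 lower, against 650 and 576 for the same genes as measured, with 318 and 403 shared. Of these 4332 genes 1085 were then called higher and 1917 lower, which is the background for the adjusted counts below. Of 3090 calls 2381 kept their direction and side, and 120 genes were called in opposite directions. Below, the median after length adjustment follows the measured one of each list, and named genes that are then called otherwise are given with their value. Directions after adjustment are relative to genes of like length, shifted by the median of the curve, which lies below 0, and not to the KCl cells. A small negative value can thus belong to a gene above the curve. VMA1, at 1.18 as measured and with 1.16 on the curve, became -0.11.

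**Figure D2:**
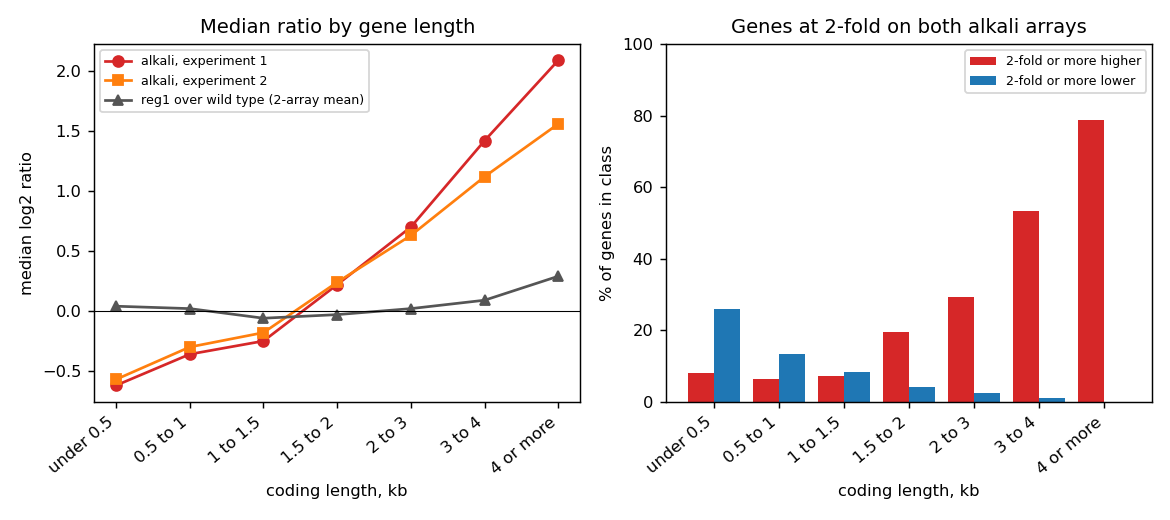
Left, median log2 ratio (y axis) by class of coding length in kb (x axis) for genes outside the ribosome lists, on alkali experiment 1, alkali experiment 2 and as the 2-array mean of reg1 over wild type; right, the percent of those genes at 2-fold or more on both alkali arrays. The alkali medians climb from -0.62 and -0.57 in the shortest class to 2.09 and 1.56 in the longest, while those of the mutant stay between -0.06 and 0.29.

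Genes for moving cations rose widely. Of 15 tested genes of sodium, potassium and proton transport 13 rose, none fell, and 7 were at 2-fold, with a median of 1.04 against -0.085 over all genes. Besides ENA1 and ENA2, KHA1, a putative potassium and proton antiporter of internal membranes, had 3.84 and 3.44. PMA1, the proton pump itself, had 0.58 and 0.60, and the potassium importer TRK1 had 0.88 and 0.42. Both are long genes, and their length-adjusted values were -0.47 for PMA1 and -0.86 for TRK1, below 0. The length-adjusted median of the list was 0.47, with 8 members higher and 3 lower. PMA1 and TRK1 were no longer called without either array.

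Targets of calcineurin had the highest median of the lists. Of 21 targets of calcineurin and Crz1 that were tested 19 rose and none fell, and 17 were at 2-fold or more. Their median was 3.32, the highest of the 50 lists, and 2.49 after length adjustment, with all 21 higher. Members of the lists were chosen with earlier results of these data known, so this rank is a description only. PMC1, the vacuolar calcium pump, had 3.78 and 3.46, and PMR1, the calcium and manganese pump of the Golgi, had 2.59 and 2.74. The calmodulin-dependent kinase gene CMK2 had 3.50 and 3.27. All 3 were several-fold higher on each array.

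Cell wall genes of the same list were as high. GSC2, an inducible subunit of glucan synthase, had 4.33 and 4.38 (20.5-fold), CHS1, a chitin synthase, 4.21 and 4.01, and YPS1, a surface protease, 3.66 and 3.96. PUN1, a plasma membrane protein, had 4.37 and 4.43, and the ammonium transporter gene MEP1 4.33 and 4.10. BAG7, a GTPase-activating protein for Rho1, had 5.92 and 4.68. RCN1, whose product binds and restrains calcineurin, rose less, with 0.92 and 0.72, and was not called without either array.

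Components of the calcium pathway itself rose in 8 of 14 cases, 6 of them at 2-fold, and fell in 3, with a median of 0.81 (0.59 after length adjustment). PMC1, CMK2 and PMR1, described above, led this list too. The 3 that fell were CMD1, calmodulin (-0.80 and -0.78), CNB1, the regulatory subunit of calcineurin (-0.68 and -0.65), and MID1, a subunit of the calcium channel (-0.46 and -0.31). CMD1 is a short gene of 444 bases, and at -0.30 it was not called after length adjustment. CRZ1 had a value on experiment 2 only, 1.59. CMD1, CNB1 and MID1 all lost their calls without either array.

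The Rim101 pathway, which cuts and activates the repressor Rim101 at alkaline pH, had 8 of 11 tested genes higher and 2 lower, with a median of 0.76 (0.60 after length adjustment). RIM101 had 1.12 and 1.02 and RIM8, the arrestin-like adaptor of the pathway, 2.63 and 1.26. NRG1 and SMP1 are known to be repressed by Rim101, and both rose, NRG1 with 1.75 and 1.57 and SMP1 with 1.62 and 1.39. The 2 that fell were VPS20 (-1.27 and -1.35) and VPS4 (-0.86 and -0.77), of the membrane-sculpting ESCRT machinery that the pathway shares with endosomes. SMP1 was no longer called without experiment 1, nor VPS4 without either array.

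Snf1 signalling genes moved in both directions, as did all tested genes (32.6% higher and 38.6% lower). Of 15 genes of the Snf1 kinase, the Glc7 and Reg1 phosphatase and downstream factors 7 rose and 4 fell, with a median of 0.04 (-0.34 after length adjustment, 6 higher and 7 lower). The activators SIP4 and ADR1 (3.23 and 3.05) were the highest. SIP1 (1.41 and 1.23) and SIP2 (0.84 and 0.82), alternative beta subunits of the kinase, and SAK1, an upstream kinase (0.94 and 0.75), rose too. After length adjustment SAK1 lay below 0 at -0.54. SNF4, the activating subunit, had 0.02 and 0.05 and was not called, and SNF1 was on neither array. SIP2 and SAK1 lost their calls without either array.

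The members that fell included MIG1 (-0.69 and -0.59) and MIG2 (-1.26 and -1.12), which encode repressors acting in glucose, and ELM1, another kinase upstream of Snf1 (-1.31 and -1.15). HXK2, the hexokinase that takes part in repression, had -0.40 and 0.04 and was not called. The call of MIG1 was lost without either array and that of MIG2 without experiment 1.

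In the Ras and protein kinase A pathway, which signals glucose and growth, 12 of 18 genes rose and 2 fell, with a median of 1.16. YAK1, a kinase that opposes the pathway, had 3.81 and 3.20, GPA2, the G protein of the glucose receptor, 2.90 and 3.11, and CYR1, adenylate cyclase, 3.20 and 2.36. The 2 that fell were RAS1 (-1.16 and -1.18) and TPK3, a catalytic subunit (-1.07 and -1.21). Length matters here, since 7 of the 8 members of 2000 bases or more lay above 0. After length adjustment the median was 0.24, with 9 members higher and 6 lower, and CYR1, 6081 bases long, was at 0.55. TPK3 lost its call without either array.

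Hexose transporters and sugar sensors had 6 of 13 higher and 3 lower, and a median of -0.02 (-0.30 after length adjustment, 4 higher and 6 lower). HXT5 stood far above the rest, with HXT17 (1.90 and 1.80), the sensor SNF3 (1.79 and 1.34) and the high-affinity transporter HXT2 (1.43 and 1.26) next. HXT4 (-0.76 and -1.24), HXT3 (-0.58 and -0.38) and STD1, a partner of the sensors (-1.52 and -1.37), fell. HXT1, the low-affinity transporter of glucose-rich cells, had 0.05 and -0.76, and HXT7 -0.57 and -0.15, neither of them called. Both were called lower after length adjustment, at -0.70 and -0.71. HXT6 and HXT7, and other members of the family, are close copies whose spots may share signal. The calls of HXT3 and STD1 were lost without either array, and that of HXT4 without experiment 2.

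Genes for other sugars had a small median. Of 13 genes for sucrose, maltose and galactose 6 rose and none fell, with a median of 0.28 (0.04 after length adjustment). SUC2, invertase, had -0.07 and 0.36 and was not called, and HXK1, a hexokinase, had 0.56 and 0.50, a call lost without either array. The maltose activator MAL13 was highest (2.30 and 2.29), followed by GLK1, glucokinase (1.40 and 1.44), and the maltose permease MAL31 (1.44 and 1.23).

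Genes for the use of carbon compounds other than sugar rose. Of 21 genes of gluconeogenesis, the glyoxylate cycle and C2 use 18 rose and 1 fell, 14 at 2-fold, with a median of 1.80 (1.66 after length adjustment). ADY2 and ATO2, acetate and ammonium transport proteins of the plasma membrane, had 4.58 and 4.51, and 4.21 and 4.39. YAT2, a carnitine acetyltransferase, had 3.93 and 3.96, and ICL1, isocitrate lyase of the glyoxylate cycle, 2.36 and 2.42. PCK1, the committed step of gluconeogenesis, had -0.02 and 0.14 and was not called. MDH3, the peroxisomal malate dehydrogenase, was the member that fell (-0.69 and -0.42), a call that needed both arrays.

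Trehalose and glycogen genes were higher at almost every step. All 9 trehalose and glucose phosphate genes rose, 8 of them at 2-fold, with a median of 2.82 (1.75 after length adjustment). The synthase subunits TSL1 (4.81 and 4.62), TPS2 (3.66 and 3.71) and TPS1 (2.53 and 2.57) rose together with ATH1, an enzyme that breaks trehalose down (3.39 and 3.07). Of 13 glycogen genes 10 rose and 1 fell, with a median of 1.82 (1.53). Here too genes of both directions rose: the synthases GSY1 (3.53 and 3.25) and GSY2 (3.41 and 2.78), the branching enzyme GLC3 (3.73 and 4.51) and the debranching enzyme GDB1 (4.58 and 4.04). PCL10, a cyclin of the Pho85 kinase that inhibits glycogen synthase, was the member that fell (-0.50 and -0.45), again a call that needed both arrays.

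Glycolysis stayed near the background. Of 18 genes of glycolysis and fermentation 8 fell and 3 rose, with a median of -0.24 (-0.30 after length adjustment). TPI1 (-1.01 and -0.77), GPM1 (-0.69 and -0.86) and FBA1 (-0.97 and -0.31) were lowest, and PYK2, the minor pyruvate kinase, was highest (2.23 and 2.38). TPI1, GPM1 and FBA1 were not called without either array. Glycolytic genes are among the most abundant transcripts, and 10 of the 18 shared 1 value on experiment 2, -0.31, which 28 tested rows carried against a median of 18 for the neighbouring values. TDH2, TDH3, TEF1, TEF2 and CCW12 had -0.06 on experiment 1 and -0.31 on experiment 2 alike. Spot intensities were not used here, and whether these spots had reached a limit of the scan was not tested.

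The tricarboxylic acid cycle and pyruvate entry had 7 of 25 genes higher and 8 lower, beside 32.6% and 38.6% of all genes. The median was -0.04 (-0.11 after length adjustment). PYC1 and PYC2, pyruvate carboxylases, rose (2.66 and 2.46, and 1.69 and 1.62), as did KGD1 of ketoglutarate dehydrogenase (1.66 and 1.56) and the pyruvate carrier subunit MPC3 (1.43 and 1.34). PYC1, PYC2 and KGD1 are long, at 1.12, 0.22 and 0.40 after length adjustment, and PYC2 was then not called. The isocitrate dehydrogenase subunits IDH1 (-1.04 and -1.05) and IDH2 (-0.87 and -0.72) fell. The respiratory chain and ATP synthase were lower, with 21 of 30 genes falling and 4 rising and a median of -0.73. ATP20 (-1.79 and -1.75) and TIM11 (-1.60 and -1.50), small subunits of ATP synthase, and QCR7 of the cytochrome bc1 complex (-1.46 and -1.51) were lowest. The 4 that rose were the NADH dehydrogenases NDE2 (2.90 and 2.64) and NDI1 (0.70 and 0.80), the ATPase stabilising factor STF2 (0.86 and 1.00) and the cytochrome c isoform CYC7 (1.66 and 0.72). Respiratory genes are short, with a median of 445 bases, and their length-adjusted median was -0.28, with 14 lower and 6 higher. Both shares were near those of all genes after adjustment, 1917 lower and 1085 higher of 4332. Calls of IDH1, IDH2, NDI1 and STF2 were lost without either array, and that of CYC7 without experiment 1.

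Phosphate genes did not act as a unit. PHO89 rose furthest of 4 tested phosphate transporters, PHO91 of the vacuole had 1.08 and 1.15, and PHO84, the high-affinity transporter, had a value on experiment 2 only, -0.12. The median of the 4 was 1.01 (0.57 after length adjustment). Of 6 phosphatases none rose and 4 fell, with a median of -0.47 (-0.29), among them PHO3 (-2.15 and -1.21) and PHO5 (-0.43 and -0.71), close copies of each other. Of 14 genes of polyphosphate synthesis and PHO regulation 7 rose and 3 fell. The regulator gene PHO81 (1.42 and 1.44), the inhibitor SPL2 of the low-affinity transporters (1.30 and 1.01) and VTC5 (1.85 and 1.57), an activator of polyphosphate synthesis, rose. VTC1, of the same complex, had -0.70 and -0.62, and PHO4, the transcription factor, -0.22 and -0.19, which was not called. After length adjustment PHO81 lay at -0.01, PHO91 at 0.10 and VTC1 at -0.10, none of them called, and the last list's median moved from 0.38 to -0.06. Calls of PHO3 were lost without experiment 1, and those of PHO5 and VTC1 without either array.

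Metal genes stayed near the background. Of 25 iron genes 11 rose and 7 fell, with a median of 0.13 (-0.05 after length adjustment), and of 13 copper and zinc genes 4 rose and 5 fell, with a median of -0.11 (-0.28). Some genes of reductive uptake at the surface fell: FET3 (-0.89 and -0.79) and FTR1 (-1.09 and -0.89), which together import iron, the reductase FRE1 (-0.56 and -0.65) and the copper transporter CTR1 (-0.76 and -0.64). FRE2, FRE3, FRE4 and CTR3 had a value on neither array, and FRE7 had 0.08 on experiment 2 only, so the systems as a whole were not measured. ATX1, a copper chaperone, fell most, with -2.61 and -2.52. FRE5, a reductase-like gene (1.87 and 2.01), and ISU1, a scaffold for iron-sulfur clusters (1.36 and 1.34), rose most. FRE1, CTR1 and FET3 lost their calls without either array, and FTR1 without experiment 1.

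General stress genes rose in 23 of 28 cases and fell in none, with 12 at 2-fold and a median of 1.10, which was 1.25 after length adjustment. XBP1, a repressor active in stress and quiescence, had 3.95 and 4.09, GAD1, glutamate decarboxylase, 3.10 and 2.69, and SOL4 2.89 and 2.86. HSP12, a membrane-stabilising protein, had 1.15 and 0.88, MSN4 0.65 and 0.38, MSN2 0.19 and 0.30 and CTT1, catalase T, 0.16 and 0.25. Msn2 and Msn4 are the factors that drive this group, and of the latter 3 genes MSN4 was called, and then with both arrays only. After length adjustment MSN4 was not called, at 0.04, and MSN2 was called lower, at -0.40. HSP12 was not called without experiment 1. Of 21 chaperone genes 9 fell, a share near the background, and 3 rose, with a median of -0.18. After length adjustment 17 were lower and 2 higher, with a median of -0.63. The lowest were HSP10 of the mitochondria (-1.42 and -1.66) and SIS1 (-1.14 and -1.06), the latter not called without either array. Oxidative stress genes had 9 of 29 higher and 14 lower and a median of -0.25 (-0.10 after length adjustment), with SKN7 (1.21 and 1.36) and GSH1 (1.14 and 1.03) highest and TRX1 (-1.30 and -1.31) lowest.

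Genes that watch and rebuild the cell surface rose in part. Of 16 genes of cell integrity sensors and the Slt2 cascade 8 rose and 2 fell, with a median of 0.66 (0.32 after length adjustment, 8 higher and 3 lower). ROM1, which activates Rho1, had 5.11 and 2.61, MTL1, a sensor, 2.86 and 2.92, PTP2, a phosphatase acting on the kinases, 3.01 and 2.05, and SLT2 itself 1.36 and 1.28. MKK1, the kinase before Slt2, fell (-0.86 and -0.53) and was not called without either array. Of 28 wall enzymes and mannoproteins 12 rose and 4 fell, with a median of 0.26 (0.27), GSC2 and CHS1 highest and the glucanase EXG1 lowest (-1.44 and -1.50). Of 11 genes of the Sur7 family and eisosomes, the furrows of the plasma membrane, 9 rose and 1, FHN1, fell (-2.03 and -1.94), with a median of 1.34 (0.85).

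Ergosterol genes fell at a share near the background, while most drug efflux genes rose. Of 25 ergosterol genes 11 fell and 4 rose, where 38.6% and 32.6% of all genes did so. Their median was -0.30 (-0.36 after length adjustment). ERG5 (-1.83 and -1.73) was lowest and the HMG-CoA reductase HMG2 (1.62 and 1.52) highest. HMG2 was not called after length adjustment, at 0.31. Of 14 genes of drug efflux 10 rose and 3 fell, with a median of 1.66. PDR15 and PDR10 (3.66 and 3.40), long ABC transporters, were highest, and AQR1 was lowest by far, with PDR16 (-1.49 and -1.41) next. After length adjustment the median of that list was 0.37, with 7 higher and 3 lower.

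Vacuolar functions differed by kind. Of 17 genes of the vacuolar proton ATPase, which acidifies the vacuole, 11 fell and 3 rose, with a median of -0.60 (-0.47 after length adjustment). The division followed length: all 10 tested genes under 1000 bases lay below 0, with VMA21 (-1.93 and -1.64) and VMA7 (-1.70 and -1.38) lowest, and all 3 of 2000 bases or more rose, namely STV1 (1.89 and 1.97), VMA1 (1.16 and 1.20) and VPH1 (0.95 and 0.90). After length adjustment VMA1 lay at -0.11 and VPH1 at 0.01, and neither was called. Of 11 vacuolar hydrolases 8 rose and 1 fell, with a median of 1.32 (0.95). PRB1, a protease, had 3.16 and 3.15, and AMS1, a mannosidase, 3.16 and 2.89. PBI2, an inhibitor of Prb1, was the member that fell (-0.72 and -1.0), not called without experiment 2 and at -0.03 after length adjustment. VPH1 was not called without experiment 1.

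Autophagy genes rose in 21 of 28 cases and fell in 3, with 14 at 2-fold and a median of 0.99 (0.76 after length adjustment, 19 higher and 3 lower). ATG1, the kinase that starts autophagy, had 4.38 and 3.53, ATG7, which activates the ubiquitin-like proteins of the pathway, 2.56 and 2.02, and ATG2 2.10 and 1.97. The 3 that fell were ATG27 (-1.37 and -1.20), ATG10 (-1.12 and -1.25) and ATG12 (-0.80 and -0.98). ATG2 is 4779 bases long and was not called after length adjustment, at 0.15. The calls of ATG10 and ATG12 were lost without either array. Of 32 proteasome genes 13 fell and 4 rose, where 38.6% and 32.6% of all genes did so. Their median was -0.22 (-0.17). UBI4, the polyubiquitin gene in that list, had 2.16 and 2.14, and RPN4, the activator of proteasome genes, -0.32 and -0.43, a call lost without either array.

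**Figure D3:**
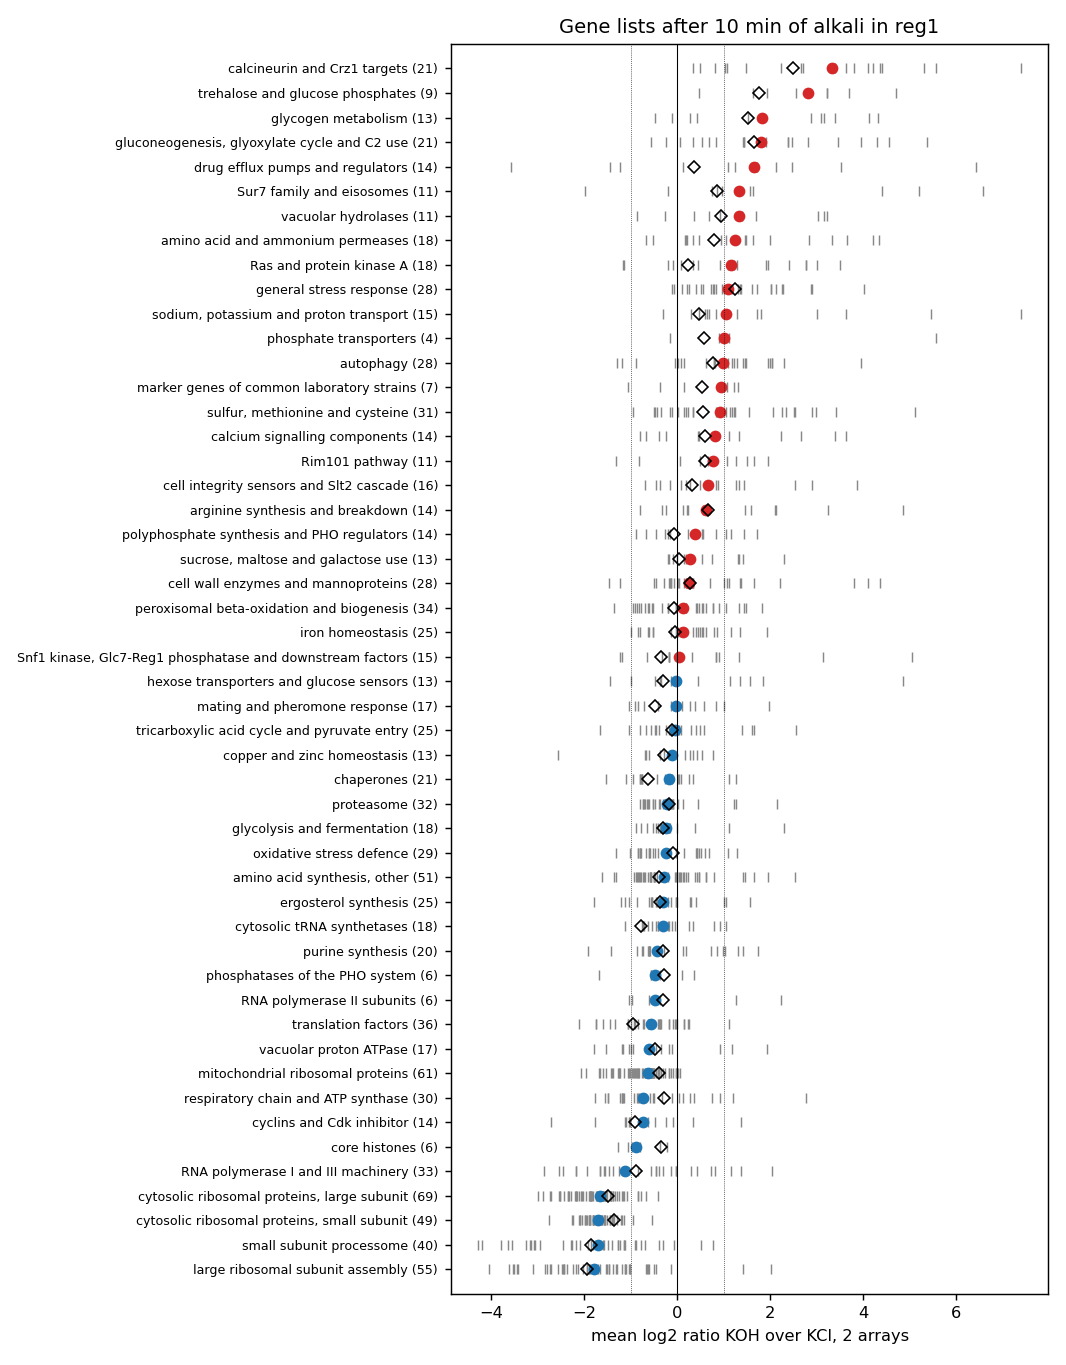
Mean log2 ratio of KOH over KCl for every tested member (grey ticks) of the 50 gene lists, with list medians (filled circles, red above 0 and blue below) and medians after length adjustment (open diamonds); numbers of tested members are in brackets and dotted lines mark 2-fold. Medians run from -1.78 for large subunit assembly to 3.32 for calcineurin and Crz1 targets.

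Every tested gene for a cytosolic ribosomal protein fell. All 69 of the large subunit and all 49 of the small subunit were lower, 63 and 46 of them at 2-fold, with medians of -1.66 and -1.70, close to each other on a scale where all genes have -0.085. The lowest were RPL29 (-2.72 and -3.25), RPL41A (-2.78 and -3.0) and RPL39 (-2.74 and -2.73) in the large subunit, and RPS30B (-2.88 and -2.63), RPS10A (-2.19 and -2.34) and RPS27A (-2.23 and -2.24) in the small. Most ribosomal proteins have 2 nearly identical gene copies whose spots may share signal. In 41 pairs with both copies tested the median difference between copies was 0.13, and 36 pairs differed by less than 0.5. The pair that differed most was RPL31A, at -2.51, and RPL31B, at -0.42. After length adjustment, which moves these short genes up, the medians were -1.48 and -1.36, with 68 and 48 lower and 1 small subunit gene higher.

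The machinery that assembles ribosomes fell to the same depth with a wider spread. Of 40 small subunit processome genes 36 fell and 2 rose, 31 at 2-fold lower, with a median of -1.70. Of 55 genes of large subunit assembly 51 fell and 2 rose, 42 at 2-fold lower, with a median of -1.78. Here length adjustment moved the medians down, to -1.86 and -1.94, with 38 and 53 members lower. The 4 that rose were NOP1, the fibrillarin methyltransferase (0.54 and 1.02), PWP2 (0.60 and 0.43), NOP12 (1.57 and 1.26) and REA1, the giant ATPase of the pre-60S particle (2.12 and 1.93). PWP2 and REA1 are long and lay at -0.55 and -1.46 after length adjustment. NOP1 and PWP2 were not called without either array.

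The polymerases that make ribosomal and transfer RNA fell as well. Of 33 genes of RNA polymerases I and III and their factors 21 fell and 5 rose, with a median of -1.12 (-0.89 after length adjustment). RPA34 (-2.99 and -2.74) and RPA49 (-2.41 and -2.66) of polymerase I, and RPC19, which both enzymes share (-2.30 and -2.61), were lowest. RPO31 (2.86 and 1.21) and RET1 (1.54 and 1.22), the largest subunits of polymerase III, rose, as did its repressor MAF1 (0.70 and 0.74). All 14 genes of the list under 1000 bases lay below 0, and after length adjustment 26 were lower and 1 higher. RPO31, at 0.28, and RET1, at -0.02, were then not called. Of 6 subunits of RNA polymerase II the large RPO21 (2.18 and 2.30) and RPB2 (1.43 and 1.08) rose and RPB4, RPB9 and RPB3 fell, with -1.01 and -1.08, -1.04 and -0.90, and -0.48 and -0.73. Their median was -0.48 (-0.31). RPO21, 5202 bases long, was at 0.24 after adjustment and RPB2 at -0.24, neither of them called. MAF1 and RPB3 lost their calls without either array and RPB9 without experiment 1.

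Other parts of protein synthesis fell less. Of 36 translation factors 23 fell and 1 rose, with a median of -0.57, led by SUI1 (-1.88 and -2.34), EFB1 (-1.77 and -1.71) and CDC33, the cap-binding protein (-1.87 and -1.60). TIF4632, a scaffold of initiation, was the one that rose (1.27 and 0.98), and it was not called after length adjustment, at 0.08. Of 18 cytosolic tRNA synthetases 9 fell and 3 rose, with a median of -0.31, and WRS1 was lowest (-1.34 and -0.89), with a call lost without either array. With length adjustment translation factors and synthetases were lower still, with medians of -0.95 and -0.78, 30 and 16 members lower and none higher. Of 61 mitochondrial ribosomal protein genes 50 fell, 13 of them at 2-fold, and none rose, with a median of -0.62 and a length-adjusted median of -0.39. MRPL44 (-2.06 and -2.08) and MRP2 (-1.74 and -2.17) were lowest.

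**Figure D4:**
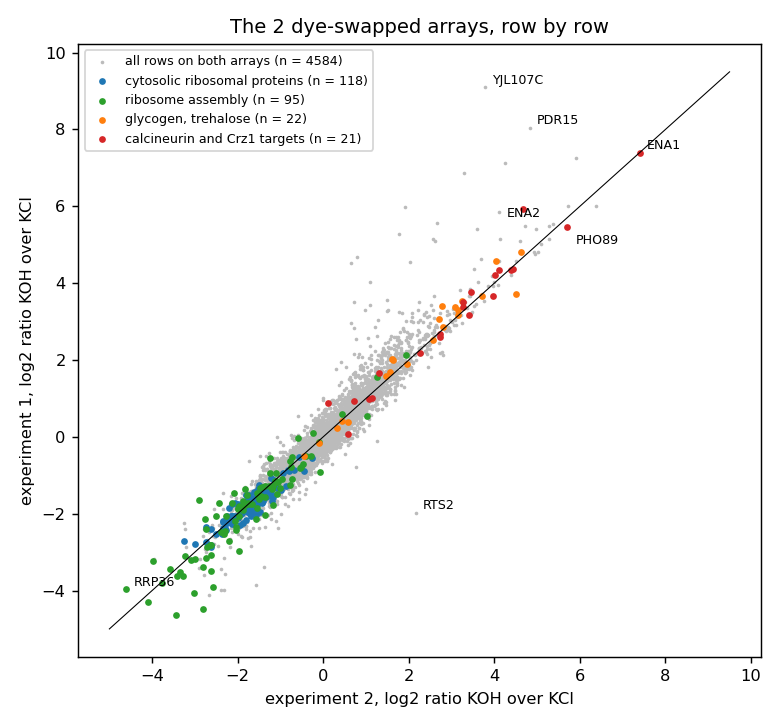
Log2 ratio of KOH over KCl on experiment 1 (y axis) against experiment 2 (x axis) for the 4584 genes on both arrays, with 4 gene groups in colour and the line of equal values. Ribosomal protein and ribosome assembly genes lie at the lower left and calcineurin targets and storage carbohydrate genes at the upper right; RTS2, at -1.97 and 2.16, lies apart.

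Amino acid and ammonium permeases and genes of sulfur amino acids had medians above that of all genes. Of 18 amino acid and ammonium permeases 12 rose and 2 fell, with a median of 1.25 (0.80 after length adjustment). PUT4, the proline permease, had 4.57 and 4.10 and AGP2, a carnitine and polyamine transporter, 3.54 and 3.77, while the ammonium transporters MEP2 (-0.39 and -0.96) and MEP3 (-0.42 and -0.61) fell. Of 31 genes of sulfur, methionine and cysteine 20 rose and 5 fell, with a median of 0.93 (0.55, with 19 higher and 4 lower). STR3, which makes homocysteine from cystathionine, had 5.50 and 4.71, MUP3, a methionine permease, 3.51 and 3.32, and MMP1, which imports S-methylmethionine, 2.90 and 3.05. MET31, a transcription factor of these genes, fell (-1.11 and -0.80). MEP3 lost its call without either array, MEP2 without experiment 2 and MET31 without experiment 1.

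Arginine genes were split between a strong rise at a few steps and little elsewhere. Of 14 tested 8 rose and 1 fell, with a median of 0.62 (0.66 after length adjustment). ARG3, ornithine carbamoyltransferase, had 5.11 and 4.59, and CPA1, a subunit of carbamoyl phosphate synthetase, had 2.15 and 2.12. Of 51 genes for other amino acids 12 rose and 23 fell, with a median of -0.28 (-0.38). GDH2, which degrades glutamate (2.67 and 2.40), and ARO1 (2.00 and 1.91) were highest and ARO7 lowest (-1.73 and -1.51). ARO1 is 4767 bases long and lay at 0.08 after length adjustment. Of 20 purine genes 7 rose and 10 fell, with a median of -0.43 (-0.30), ADE6 (1.83 and 1.66) and ADE17 (1.41 and 1.40) highest and the salvage enzyme HPT1 lowest (-1.93 and -1.91). ADE6 was not called after length adjustment, at 0.10.

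Of 14 genes of cyclins and the Cdk inhibitor 10 fell and 1 rose, with a median of -0.74 (-0.90 after length adjustment). CLB6, an S phase cyclin, had -3.86 and -1.58 and PCL1, a G1 cyclin, -1.84 and -1.69, while CLN3, the cyclin that starts G1 exit, rose with 1.11 and 1.65. Of 6 core histone genes 5 fell, with a median of -0.88 and HHF2 lowest (-1.06 and -1.48). Histone genes are short, and after length adjustment the median was -0.34. Then 3 were lower and 1 higher, shares not far from those of all genes after adjustment. Mating genes had 5 of 17 higher and 5 lower and a median of -0.02 (-0.47), with AGA1, an agglutinin subunit, highest (2.26 and 1.71). Peroxisomal genes had 13 of 34 higher and 11 lower and a median of 0.13 (-0.07), with PIP2, the oleate-responsive activator, highest (1.99 and 1.65). Beside the mating and peroxisomal counts, 32.6% of all genes were higher and 38.6% lower. Of 7 genes often used as strain markers 4 rose and 2 fell, with a median of 0.94 (0.54), HIS3 with -1.05 and -1.05, URA3 with -0.26 and -0.48, LEU2 with 0.99 and 1.16, MET17 with 1.08 and 1.35 and ADE2 with 1.31 and 1.29. URA3 was not called without either array or after length adjustment (-0.17), nor LEU2 and MET17 without experiment 2. The labels give no auxotrophic alleles.

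How alkali in reg1 relates to the effect of the mutation before any stress was tested where the mutant columns hold their names, in 2228 rows from YBR048W to YKL010C measured on all 4 arrays. The alkali ratio lay above the mutant ratio in 436 genes (19.6%) and below it in 484 (21.7%), together 41.3%, by limma on the difference of the 2 ratios. Neither ratio was adjusted for length, though rho with length was 0.504 for alkali and 0.089 for the mutant. How much of each difference follows length was not tested. Untreated reg1 cells are in the numerator of the one ratio, and reg1 cells with KCl in the denominator of the other, so the alkali ratio starts from whatever the mutation had already set.

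Genes already raised by the mutation were more often higher under alkali than genes it did not move, and not more often lower. Of 70 genes at 2-fold higher on both mutant arrays 25 were at 2-fold higher again on both alkali arrays (35.7%, and 8.3% of the 303 higher under alkali in these rows), 7 were at 2-fold lower (10.0%, and 2.4% of the 291 lower) and 38 were neither. Of the 2149 genes at 2-fold in neither direction in the mutant 12.8% were at 2-fold higher under alkali and 13.2% lower. PHO89 had 3.97 in the mutant and a further 5.57 under alkali, a difference of 1.60 (adjusted p = 0.000996, limma). GSC2 had 1.16 and 4.36, GLC3 1.81 and 4.12, and PRB1 1.70 and 3.15. ADR1 had 2.75 and 3.14, which did not differ by the test (adjusted p = 0.238, limma). Of 9 genes at 2-fold lower in the mutant 2 were higher under alkali, PAU5 (-1.95 and 1.27) and ROG3 (-1.19 and 1.97), which is 22.2% of the 9 and 0.7% of the 303.

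Respiration, phosphatases and sugar use had opposite or unequal ratios in the 2 comparisons. Of 16 respiratory genes 14 had an alkali ratio below their mutant ratio and 1 above it, with medians of -0.77 and 1.20. Respiratory genes are short, and the length-adjusted alkali values were nearer to 0 for QCR7, at -0.92, and TIM11, at -0.84. Ratios as measured follow. QCR7 had 1.22 in the mutant and -1.48 under alkali, QCR6 1.70 and -1.14, TIM11 1.17 and -1.55, and the ATPase inhibitor INH1 1.76 and -1.20. These 4 were among the 7 genes raised by the mutation and lowered by alkali, with PHO3 (2.03 and -1.68), VID24, which directs gluconeogenic enzymes to degradation (1.38 and -1.36), and KNH1, a wall glucan gene (1.37 and -1.95). Those 7 are 10.0% of the 70 raised, while 13.2% of genes at 2-fold in neither direction in the mutant were lower. Of 6 acid and other phosphatases of the PHO system 4 had an alkali ratio below their mutant ratio, with medians of -0.47 and 1.67. Of 10 sugar-use genes 5 had an alkali ratio below their mutant ratio and none above it, with medians of 0.41 and 1.87. A lower ratio here need not be a fall: with alkali itself 6 of 13 sugar-use genes rose and none fell. SUC2 had 4.43 in the mutant and 0.14 under alkali, where it was not called. HXT4 had 3.66 and -1.0, and it did fall with alkali.

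Other groups lay mostly to 1 side of their mutant ratios. Alkali ratios lay above mutant ratios in 6 of 7 targets of calcineurin and 5 of 7 glycogen genes. The same held for 8 of 13 sulfur genes and 9 of 16 general stress genes, with none below in these 4 groups. Ribosome assembly genes had alkali ratios below their mutant ratios in 19 of 23 small subunit and 22 of 26 large subunit genes. Their mutant medians were -0.17 and -0.21. Ribosomal protein genes were below their mutant ratio in 36 of 39 large subunit and 24 of 26 small subunit genes, with mutant medians of -0.55 in each. Without alkali experiment 1 the test of the difference called 199 genes, without experiment 2 320, and without mutant experiment 1 or 2 1127 or 1122.

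**Figure D5:**
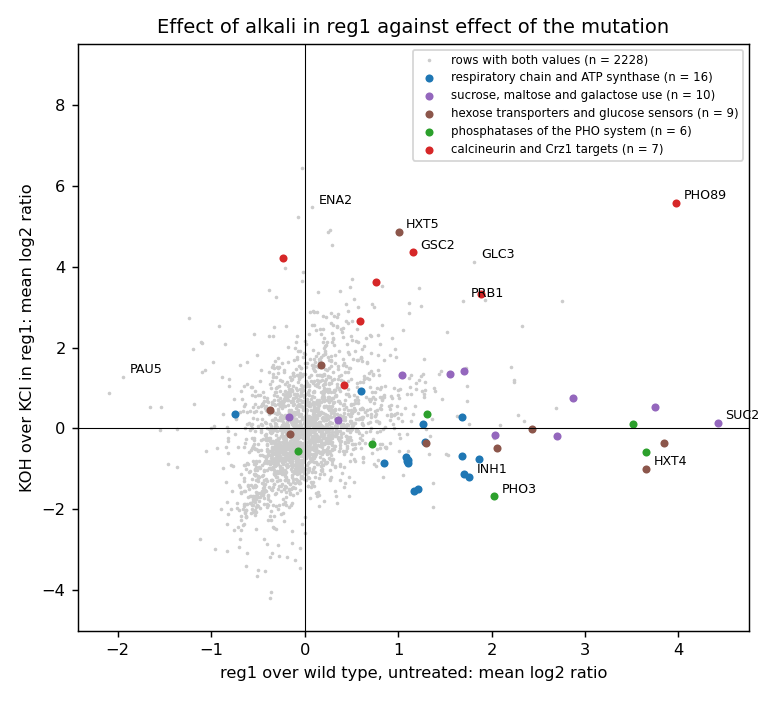
Mean log2 ratio of KOH over KCl in reg1 (y axis) against the mean log2 ratio of untreated reg1 over wild type (x axis) for 2228 genes measured on all 4 arrays in rows where both hold their names, with 5 gene groups in colour. Respiratory genes lie mostly right of 0 and below it, sugar-use genes far right near 0 on the y axis, and calcineurin targets high on the y axis.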

How the data were processed

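Total RNA was compared on 4 spotted 2-colour arrays, and the 2 alkali arrays are reported here. The authors deposited 1 table of log ratios, which were read as log2. Small or weak spots had been left out by the authors, per the labels. How the scans were corrected and normalized is not given in the sources used here, and signal over background is unknown. Ratios were used as deposited, with no sign turned, since the dye-swapped arrays correlate positively. Names came from R64 by locus tag for 5662 of 6212 rows, and the other 550 kept the table's names.

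The mean of the 2 ratios was tested against 0 with limma 3.58.1 (lmFit, eBayes) in R 4.3.3 on the 2 arrays alone (1 residual degree of freedom, prior 3.04), adjusted by Benjamini-Hochberg over all 4719 rows of the table measured on both and called under 0.05. KCl RNA is the other channel of each array, so the spread between control cultures is not seen apart. The test was also run on simulated ratios of 4719 rows, 100 of them changed 2-fold and 100 changed 4-fold. It recovered 41 and 69 of these, with 1 false call. Far more rows are called in the real data, so these shares need not hold there. Differences from the mutant ratio came from a contrast over all 4 arrays. In other rows the mutant columns are displaced, so none of those were used.

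Named genes were the 12 highest and 12 lowest called by the array nearer to 0, the 3 largest called members of each list in each direction, members called against their list's median, pathway-defining genes, the 5 whose arrays differed most and those at the 2-fold limit. Some genes that the rule names are not reported here. No gene within 20 rows of the omitted stretch is named, and copies of ribosomal protein genes, genes moved in both comparisons and genes with repeated values were named after their values were seen. Lists hold 1345 genes, 1116 of them tested, and were not tested as sets. The members and lists were chosen with earlier results of these data known. Alternatives covered the other arrays in the fit, centring, scaling, a dye term, a robust prior, a fold threshold, each array left out and gene length, a loess curve with a span of 0.5. Promoter motifs and protein identities were not analysed here.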

Additional observations from a re-analysis of the deposited data

How the results depend on the processing

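The called total lay within 1.5 times of 3264 under all 4 arrays as deposited or realigned by 2 rows, centring, scaling, a dye term, a robust prior and omission of the unsettled stretch before the fit. Against a 1.5-fold threshold 1539 genes passed, 783 higher and 756 lower. Leaving out 1 alkali array gave 1312 to 1530 calls, 703 to 819 higher and 609 to 711 lower, so that the excess of lower genes did not hold. With both arrays that excess nearly vanished after centring on the median (1534 higher and 1553 lower) or scaling (1643 and 1661). With 4-fold in place of 2-fold on both arrays 302 genes counted, 196 higher and 106 lower. For alkali minus mutant, 920 became 1888 (906 above, 982 below) over all rows as deposited and 1780 (827 and 953) realigned, with 4111 and 4257 rows tested in place of 2228. Leaving out 1 array at a time gave 199 to 1127 (113 to 521 above, 86 to 649 below), the lower ends without an alkali array, and it was 833 with experiment number as a replicate block, a number the labels do not say pairs the samples. Length adjustment turned 27 named values: TFC3 -0.63, PWP2 -0.55, VMA1 -0.11, STE5 -0.47, CCC2 -0.67, SAK1 -0.54, PMA1 -0.47, LEU1 -0.33, TFC4 -0.077, CTT1 -0.13, VAS1 -0.55, ADE3 -0.078, PHO81 -0.005, PFK1 -0.049, SUC2 -0.13, TRK1 -0.86, SSC1 -0.19, RGT1 -0.30, PCK1 -0.25, REA1 -1.46, STE11 -0.29, HMG1 -0.26, MSN2 -0.40, RPB2 -0.24, RET1 -0.018, ALA1 -0.19 and CDC60 -0.27. Of these, VMA1, TFC4, ADE3, PHO81, PFK1 and RET1 as measured lay above the curve, and its added median took them below 0. Uncalled genes that changed sign with 1 array left out were HXK2 (-0.40 to 0.04), HXT1 (-0.76 to 0.05), SUC2 (-0.07 to 0.36) and PCK1 (-0.02 to 0.14). The cause was not tested. With 2 arrays, their number limits the precision.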

Other observations

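Rows with a value on 1 alkali array cannot be tested and are given as single values. Leaving out 3 rows near the omitted stretch, on experiment 2 alone were 437 rows with a median log2 ratio of 0.14, 87 of them at 2-fold or more higher and 62 lower. Ribosome assembly genes were again at the lower end, with NOG2, a GTPase of the pre-60S particle, at -3.52 and the processome genes UTP13 and UTP6 at -3.27 and -3.25. YJR038C was at 4.88, FLO10, a cell surface flocculin, at 3.64, and MGA1, a heat shock factor-like gene, at 3.30. On experiment 1 alone were 26 rows, 8 at 2-fold or more higher and 6 lower, with DIT2, an enzyme of the spore wall, at 4.35 and the processome gene UTP18 at -2.93.

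Neighbouring genes on a chromosome had weakly and positively correlated ratios. Over 3281 pairs of adjacent tested genes the means correlated at r = 0.126, a description over genes of the same arrays. It was 0.170 for 831 divergent pairs, 0.129 for 1571 in tandem and 0.061 for 879 convergent pairs. Of the pairs 96 had both genes at 2-fold higher, 81 both lower and 110 in opposite directions. Of all tested genes 14.9% were at 2-fold higher and 13.4% lower, and whether these pair counts depart from those shares was not tested. The longest runs of adjacent genes at 2-fold held 4 genes. One was lower, RPC19, DBP2, CYB5 and NOP15, with means of -2.46, -1.74, -2.06 and -2.79, and 1 was higher, PUL4, YNR064C, YNR065C and YNR066C, with 1.49, 1.66, 2.46 and 2.23.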
